A study of Mus musculus with 4 samples.

Results

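The genes described here encode the machinery that copies DNA in S phase, and they were followed between 2 populations of cells derived from mouse embryonic stem (ES) cells. The list holds 45 genes chosen by name for their function. Of these, 41 had at least 1 probe set annotated to that gene alone, 52 probe sets in all, out of 8251 genes and 12422 probe sets. Orc3, Gins1, Pole and Tyms had none and are not analysed here.

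Transcript levels were read on 4 oligonucleotide arrays of 1 colour, with 2 titled Hemangioblast and 2 titled hCD4. All came from an ES cell line in which human CD4 marks expression of Scl, a transcription factor of early blood formation (gene symbol Tal1). By the protocols, this line was kept on STO feeder cells with LIF, then differentiated in serum for 2.75 days, and cells positive for Flk-1 and Scl were sorted from the embryoid bodies as hemangioblasts. Replated embryoid body cells formed blast colonies, which were picked singly and pooled. The sample sources call the groups differentiated hemangioblasts and hCD4 ES cells, while the study text names the populations hCD4 and Blast, and it is not settled which population each array holds. The groups are therefore called by their titles. No statement of separate cultures was found. The p-values set the change between groups against the spread between arrays of a group, estimated partly from all probe sets together. That spread may be technical.

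Blood cell markers set the groups apart. The summed scaled intensity of 9 myeloid markers was 6313 and 6989.9 (Hemangioblast) against 514.1 and 516.4 (hCD4), and 8 of the 9 rose. For 8 erythroid markers the sums were 37733 and 40329 (Hemangioblast) against 13173 and 14008 (hCD4), and 6 rose. The 9 markers of hemangioblasts and endothelium summed to 4032 and 4199 (Hemangioblast) against 6782 and 8193 (hCD4). Past the threshold 3 were lower and 0 higher, and the sum was lower on the arrays that carry the list's name. By sign, 8 were lower and 1, Pecam1, was higher, at 224.1 and 217.4 against 114.4 and 131.5 (adjusted p = 0.153). Kdr, the gene of Flk-1, was at 647.8 and 570.0 (Hemangioblast) against 1625 and 2003 (hCD4) (adjusted p = 0.00158). Tal1 was at 391.3 and 333.0 against 596.6 and 695.6 (adjusted p = 0.0513). The 9 ES cell markers summed to 4326 and 4364 (Hemangioblast) against 7720.0 and 5586 (hCD4), with 2 lower. Most of the Hemangioblast sums came from Esrrb, at 3343 and 3476 against 3165 and 3579 (hCD4). The change was below 0 for the other 8. Pou5f1 was at 104.4 and 144.0 (Hemangioblast) against 1526 and 585.1 (hCD4). Its hCD4 replicates thus lay far apart, as did those of Nanog (443.7 and 141.4) and Sox2 (289.1 and 99.7). The 8 fibroblast markers summed to 2106 and 2454 (Hemangioblast) against 2259.6 and 2055 (hCD4), with 1 higher and 1 lower. No marker of the 5 lists was at an intensity of 1 or below on all 4 arrays. The part of these cells in the values below was not tested, and in bulk RNA fewer cells of a type and less RNA per cell cannot be told apart.

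Replication starts at origins that the origin recognition complex (ORC) marks. In G1, Cdc6 and Cdt1 load the ring-shaped MCM helicase there, and in S phase kinases and helper proteins switch it on, after which primase, polymerases, the sliding clamp and ligase build the new strands from deoxynucleotides that ribonucleotide reductase supplies. Many of these genes are transcribed at the entry to S phase by E2F factors, and ES cells and early mesoderm are known for rapid cycles with a long share of S phase.

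Promoters of several MCM genes, of Orc1, and of Cdc6, Rrm1 and Rrm2, which had some of the smallest p-values, are shown first. The choice did not follow the p-value alone. They show which of these genes carry E2F-type letters near the start. RefSeq promoters of GRCm38.p6, from 250 bases before to 50 after each start site, were at hand for 36 of the 41 measured members, and not for Gmnn, Ccne2, Prim2, Rfc2 and Mcm4. They were searched on both strands for the E2F-type letters TTTGGCGC, TTTCCCGC, TTTCGCGC and TTTGCCGC and for CCAAT, the letters bound by NF-Y. Of 45 member promoters, 11 (24.4%) held E2F-type letters, against 2.26% of all 32851 promoters of the same length and 3.52% of the promoters of measured genes. CCAAT was in 25 (55.6%) against 37.4% of all promoters. A match is a description of the letters and not a site of binding. In the stretches below, written 5′ to 3′ on the gene's strand and all upstream of the annotated start, capitals mark matches to either motif on either strand. Where 2 matches overlap they form 1 run of capitals.
Mcm5: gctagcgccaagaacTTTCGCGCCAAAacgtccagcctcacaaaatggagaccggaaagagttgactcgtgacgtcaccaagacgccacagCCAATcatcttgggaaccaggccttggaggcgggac
Mcm6: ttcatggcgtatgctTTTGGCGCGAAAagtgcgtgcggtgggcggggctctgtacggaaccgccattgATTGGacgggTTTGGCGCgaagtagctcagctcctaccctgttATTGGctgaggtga
Mcm7: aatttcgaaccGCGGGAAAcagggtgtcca
Cdc6: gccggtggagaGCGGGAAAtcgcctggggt
Orc1: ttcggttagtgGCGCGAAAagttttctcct
Mcm2: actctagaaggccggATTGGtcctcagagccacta
Rrm1: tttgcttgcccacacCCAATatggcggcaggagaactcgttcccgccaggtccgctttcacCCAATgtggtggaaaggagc
Rrm2: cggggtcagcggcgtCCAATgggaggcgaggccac

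The stretches lie at chr8:75109341-75109467, plus strand (Mcm5), chr1:128359706-128359830, minus strand (Mcm6), chr5:138172030-138172059, minus strand (Mcm7), chr11:98908002-98908031, plus strand (Cdc6) and chr4:108579416-108579445, plus strand (Orc1). Those of Mcm2, Rrm1 and Rrm2 lie at chr6:88898936-88898970, minus strand, at chr7:102441589-102441669, plus strand and at chr12:24708189-24708223, plus strand. The stretches of Mcm7, Cdc6 and Orc1 meet a RefSeq gene model, from another start of the same gene or a neighbour, and were kept to 30 bases. That of Mcm5 was ended before such a model, which leaves out a CCAAT 22 bases before the start. The short stretches leave out CCAAT at 72 and 26 bases before the start in Mcm7 and at 120 and 66 in Orc1. Mcm5 and Mcm6 each carry E2F-type letters on both strands that overlap in 1 block of 12 bases, and Mcm6 carries another match closer to the start. Cdc6 and Mcm7 share the same 8 letters on the other strand. The promoters of Mcm2, Rrm1 and Rrm2, which had some of the smallest p-values among the members, held CCAAT and none of the E2F-type letters within this window. CCAAT was not particular to them, as all 6 promoters of the 5 MCM genes and that of Orc1 held it too. Only the exact letters named above were searched, so near matches, such as ttcccgcc in the Rrm1 stretch, were not counted. By role, E2F-type letters were in the promoters of 4 of 5 MCM genes, 3 of 7 origin and licensing genes, 2 of 5 polymerase and primase genes, 1 of 5 clamp and loader genes and 1 of 3 genes of flap cutting, ligation and unwinding. They were in none of the promoters of the other roles (0 of 3 genes of single-strand binding, 0 of 4 of helicase activation, 0 of 2 of chromatin assembly and 0 of 2 of deoxynucleotide supply).

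**Figure D1:**
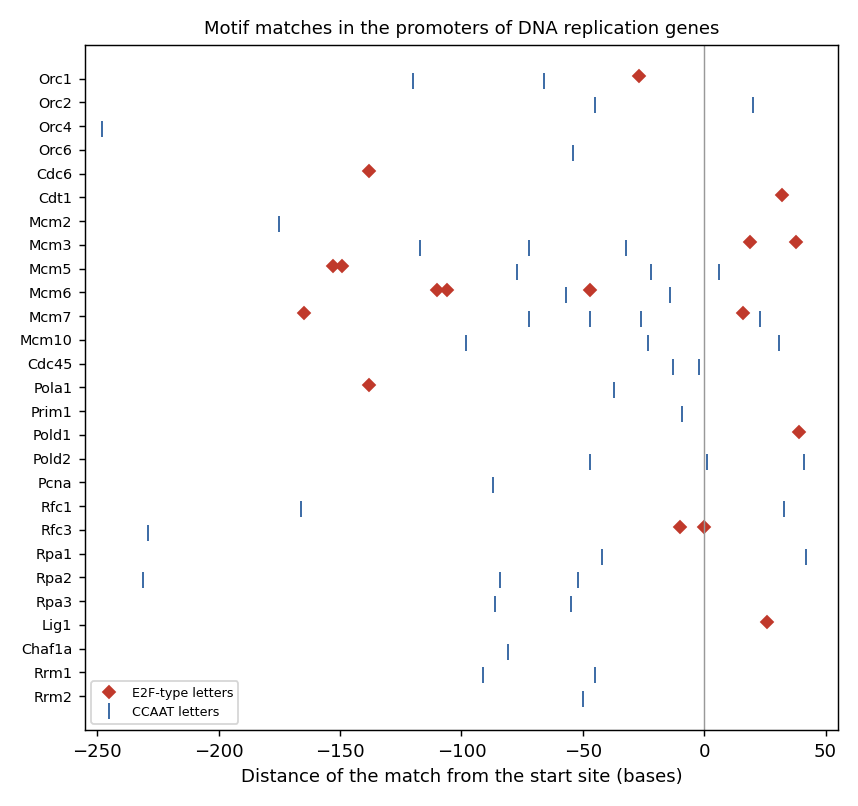
Positions of E2F-type letters (red diamonds) and CCAAT (blue bars) in RefSeq promoters of measured DNA replication genes, as the distance in bases from the annotated start site (grey line). Genes with no match to either motif are not drawn. E2F-type letters were in 11 of 45 member promoters, among them those of Mcm3, Mcm5, Mcm6 and Mcm7.

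None of the 41 replication genes passed an adjusted p of 0.05 between the groups (0 higher, 0 lower), where 5.38% of all genes passed (283 higher, 3.43%, and 161 lower, 1.95%). None of their 52 probe sets passed either, where 4.48% of all probe sets did, and 0 members differed by 2-fold in all 4 pairs of arrays, where 3.19% of genes did. The test was limma with an intensity trend, adjusted by Benjamini-Hochberg over 12422 probe sets, and changes are Hemangioblast minus hCD4 on the log2 scale of the scaled intensity plus 16. Without scaling the arrays, 169 genes were higher and 37 lower, and 0 members passed there too. At an unadjusted p of 0.05, 7 members (17.1%) were lower and 1 (2.44%) higher, where 8.67% of all genes were lower and 9.64% higher. The smallest adjusted p was that of Mcm2, 0.0502. Of 40 members, 3 passed when probe sets with a mean scaled intensity under 100, called dim here, were left out before the test. These were Mcm2 and Rrm2 (adjusted p = 0.0305 each) and Cdc6 (0.0488), all lower on the Hemangioblast arrays. In that run more genes passed in general, 391 higher and 279 lower of 6261.

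The members' changes were small and most lay on the lower side. They ran from -0.68 for Rrm2 to 0.39 for Orc2, with a median of -0.19, against 0.021 over all genes. The change was below 0 for 32 of 41 members (78%), against 47.5% of all genes. With median scaling 36 (87.8%) were below 0, against 55.9% of all genes, and with quantile normalization 30 (73.2%), against 53.4%. Without scaling it was 31 (75.6%), against 44.8%, and with the mean of all probe sets of a gene 28 (68.3%), against 45.7%. For 18 members (43.9%) both Hemangioblast arrays were below both hCD4 arrays, against 22% of all genes, and for 2 (4.88%) both were above, against 24.5%. The members were picked as one pathway and are not replicates, so no test of the list was made.

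For 37 of the 41 members (90.2%) the 95% confidence interval of the change lay within 2-fold in either direction, against 65.1% of all genes. The 4 exceptions were Rrm2, Cdc6, Mcm10 and Orc2. The median standard error was 0.18 for members against 0.25 for all genes, and the median absolute change 0.22 against 0.24. The members' intervals were thus narrower, while their changes were of similar size. After dim probe sets were left out, 40 of the 41 members remained, against 6261 of 8251 genes. The median absolute difference between the replicate arrays was 0.15 for members within the Hemangioblast group and 0.17 within the hCD4 group, and the median absolute change between groups was 0.22. The change was larger than both replicate differences for 18 members (43.9%), against 35.2% of all genes. In the 4 pairs of a Hemangioblast with an hCD4 array, the members' median difference lay between -0.28 and -0.13, with 27 to 32 of the 41 lower, while that of all genes lay between -0.02 and 0.07.

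**Figure D2:**
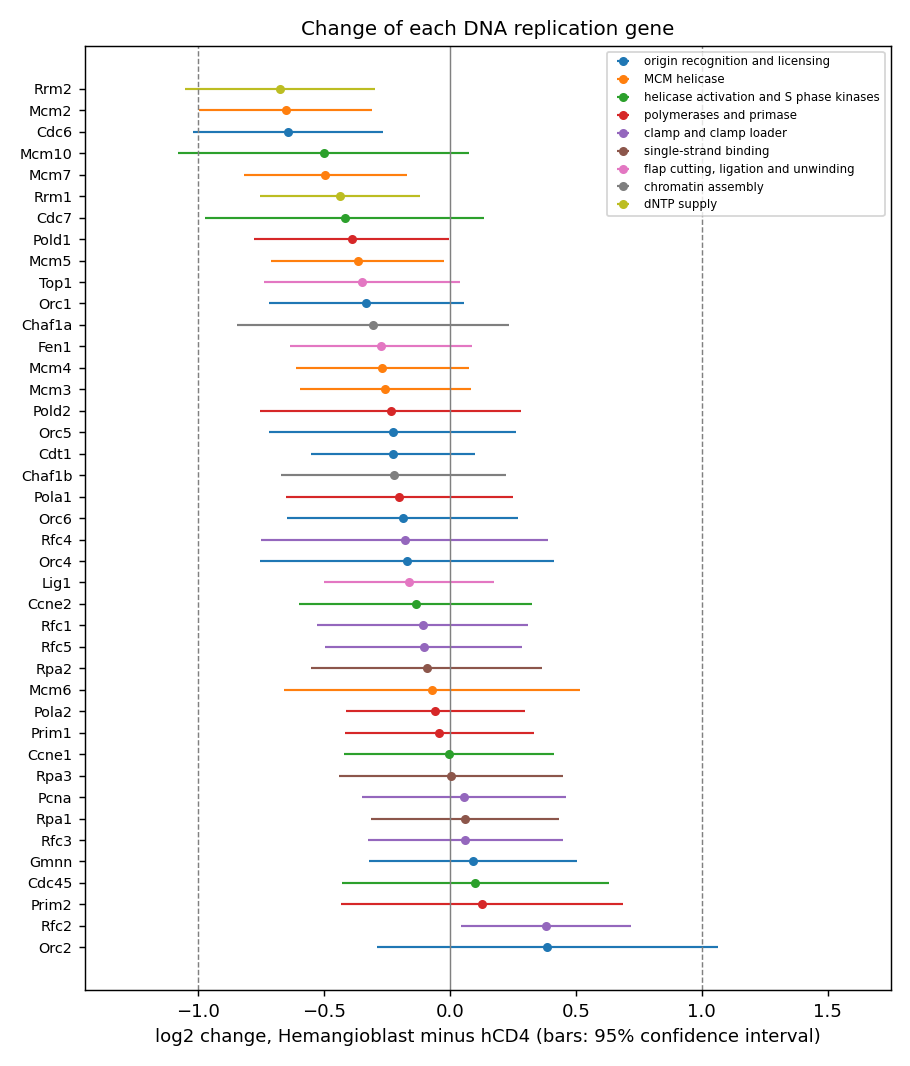
Log2 change (Hemangioblast minus hCD4, 2 arrays each) of the 41 measured DNA replication genes, sorted, with the 95% confidence interval of the limma fit as bars, coloured by role; dashed lines mark a 2-fold change. The changes run from -0.68 (Rrm2) to 0.39 (Orc2), and 37 intervals lie inside the dashed lines.

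Cdc6 had the lowest change of the licensing factors. Its product is the ATPase that helps load the MCM ring, and it had scaled intensities of 467.6 and 481.8 (Hemangioblast) against 789.0 and 715.7 (hCD4), 1.56-fold lower (log2 change -0.65, SE 0.164, adjusted p = 0.0721). Its groups lay well apart and its arrays were close within each group, and its adjusted p was 0.137 to 0.301 with 1 array left out. Orc1, the largest ORC subunit, was at 441.8 and 432.3 (Hemangioblast) against 554.2 and 555.0 (hCD4) (log2 change -0.33, SE 0.169, adjusted p = 0.398). The groups of Orc1 did not overlap either, but its interval of -0.72 to 0.054 includes 0. Cdt1, the partner of Cdc6 in loading, was at 1357 and 1426 against 1688 and 1575 (log2 change -0.23, adjusted p = 0.514), and another probe set of it had a log2 change of -0.41 (adjusted p = 0.34). Geminin (Gmnn), the inhibitor of Cdt1, was at 671.9 and 541.9 against 588.6 and 543.7, and its groups overlapped. The ORC subunit genes Orc4, Orc5 and Orc6 had changes of -0.17, -0.23 and -0.19, each smaller than the difference between a pair of replicate arrays. Orc2 leaned the other way, at 111.4 and 113.9 against 89.0 and 76.2 (log2 change 0.39, SE 0.295, adjusted p = 0.622), on a dim probe set. A second, dim probe set of Orc2 had a change of 0.71 (adjusted p = 0.418). For Orc5 a second probe set had a change of opposite sign, with both Hemangioblast arrays above both hCD4 arrays (0.36, adjusted p = 0.453). Over the 8 measured genes of this role 6 were below 0, the median change was -0.21, and it was -0.04 without Hemangioblast replicate 2, with 4 below and 4 above 0.

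All 6 subunits of the MCM helicase, which form a ring around DNA in equal numbers, had changes below 0, and for 5 of them (83.3%) the groups did not overlap, where 22% of all genes had no overlap in this direction. Mcm2 was at 812.3 and 736.8 (Hemangioblast) against 1227 and 1225 (hCD4), 1.57-fold lower (log2 change -0.65, SE 0.15, adjusted p = 0.0502, interval -0.997 to -0.31). The hCD4 arrays of Mcm2 were almost equal, and its adjusted p was 0.0399 with a constant of 1 in place of 16. It was 0.216 without scaling, 0.234 without an intensity trend and between 0.0518 and 0.279 with 1 array left out. Mcm7 was at 1237 and 1333 (Hemangioblast) against 1858 and 1775 (hCD4), 1.41-fold lower (log2 change -0.50, SE 0.141, adjusted p = 0.105). Both of its Hemangioblast arrays were below both hCD4 arrays by more than either replicate difference. Mcm5 was at 2844 and 3056 (Hemangioblast) against 3479 and 4169 (hCD4) (log2 change -0.37, SE 0.15, adjusted p = 0.269), and a second, dim probe set of Mcm5 was at 0.939 and 79.7 against 17.6 and 1.97. Averaging the probe sets therefore gave Mcm5 a change of 0.17 with an adjusted p of 0.89. Mcm3 was at 2587 and 2171 against 2779 and 2893 (log2 change -0.26, adjusted p = 0.473) and Mcm4 at 1111 and 1261 against 1376 and 1485 (-0.27, 0.455). In both genes the groups were apart by little, and on a second probe set of Mcm3 they overlapped (-0.088).

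Mcm6 was the one subunit whose groups overlapped. It was at 293.9 and 440.5 (Hemangioblast) against 321.2 and 447.2 (hCD4) (log2 change -0.071, SE 0.256, adjusted p = 0.948), and replicate 2 was the higher array in both groups. Its change was 0.21 without Hemangioblast replicate 1 and 0.16 without hCD4 replicate 2. The median change of the 6 genes was -0.32, it stayed between -0.40 and -0.22 over all alternatives run, and all 6 were below 0 under each scaling. In the 4 pairs of arrays 5 or 6 of the 6 were lower on the Hemangioblast array.

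Factors that switch the loaded helicase on gave wider intervals. Mcm10, which joins the helicase to the polymerase, was at 262.5 and 202.7 (Hemangioblast) against 398.3 and 278.9 (hCD4) (log2 change -0.50, SE 0.252, adjusted p = 0.392). Its groups were apart, although its 2 hCD4 arrays differed by nearly as much as the groups. Cdc7, the kinase that phosphorylates MCM proteins, was at 176.5 and 178.5 (Hemangioblast) against 274.6 and 213.9 (hCD4) (log2 change -0.42, SE 0.242, adjusted p = 0.475), with an interval of -0.97 to 0.14. Cdc45, a subunit of the active helicase, was at 276.1 and 299.0 against 312.9 and 227.3, and its groups overlapped. The E-type cyclins, which activate Cdk2 at the entry to S phase, also overlapped, with 1470.3 and 2060.4 against 1703 and 1789.9 for Ccne1 and 375.4 and 346.6 against 353.3 and 448.4 for Ccne2.

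Polymerase and primase genes had changes between -0.39 and 0.13, with a median of -0.13. Pold1, the catalytic subunit of polymerase delta, was at 478.8 and 526.0 (Hemangioblast) against 632.2 and 695.2 (hCD4) (log2 change -0.39, SE 0.168, adjusted p = 0.3). Its groups did not overlap, while a second, dim probe set had a change of 0.0081. Pold2, the accessory subunit of the same enzyme, was at 312.7 and 279.9 (Hemangioblast) against 413.9 and 297.6 (hCD4) (log2 change -0.24, SE 0.226, adjusted p = 0.716), with overlapping groups. Pola1 and Pola2 encode polymerase alpha, which starts each new strand with the primase subunits Prim1 and Prim2. Their changes were -0.20, -0.059, -0.042 and 0.13. The groups of Pola1 were barely apart, at 333.9 and 362.8 (Hemangioblast) against 365.0 and 444.1 (hCD4). Those of the others overlapped. A second probe set of Pola2 had a change of 0.13.

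The arrays of the sliding clamp gene overlapped between the groups. Pcna, the ring that holds polymerases on DNA, was at 2092 and 2318 (Hemangioblast) against 2472 and 1815 (hCD4) (log2 change 0.055, SE 0.177, adjusted p = 0.94, interval -0.35 to 0.46). Its hCD4 arrays lay on either side of both Hemangioblast arrays, and its change was -0.031 with median scaling, -0.02 without Hemangioblast replicate 2 and -0.17 without hCD4 replicate 2. Of the clamp loader genes, Rfc2 leaned upward, at 1081 and 1047 (Hemangioblast) against 812.8 and 814.5 (hCD4), 1.30-fold higher (log2 change 0.38, SE 0.147, adjusted p = 0.239). The replicates of Rfc2 were close and its groups did not overlap. Rfc4 was at 536.1 and 337.0 (Hemangioblast) against 432.6 and 542.3 (hCD4) (log2 change -0.18, SE 0.247, adjusted p = 0.822), where the 2 Hemangioblast arrays enclosed the hCD4 replicate 1 array. Its change was 0.14 without Hemangioblast replicate 2. Rfc1, Rfc3 and Rfc5, which form the loader with these subunits, had changes of -0.11, 0.06 and -0.10, with overlapping groups. A second probe set of Rfc5 had a change of opposite sign (0.28, adjusted p = 0.681), and there both Hemangioblast arrays were above both hCD4 arrays. A second probe set of Rfc1 had a change of -0.35, with overlapping groups. The median over the clamp and the loader was -0.025. With median scaling it was -0.11, and with the mean of all probe sets it was 0.06.

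The 3 subunits of replication protein A, which coats single-stranded DNA, had changes between -0.093 and 0.058 and overlapping groups. Rpa1 was at 643.2 and 654.8 (Hemangioblast) against 657.8 and 589.9 (hCD4) (log2 change 0.058, SE 0.163, adjusted p = 0.932). Rpa2 was at 376.5 and 334.8 (Hemangioblast) against 418.1 and 345.0 (hCD4) (log2 change -0.093, SE 0.199, adjusted p = 0.898). Rpa3 was at 681.4 and 501.0 against 585.8 and 578.9 (adjusted p = 0.998). The signs of such small changes followed the scaling and the arrays used, with Rpa1 at -0.027 under median scaling and -0.019 without hCD4 replicate 2, and Rpa2 at 0.04 without hCD4 replicate 1.

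The genes of flap cutting, ligation and unwinding leaned lower by small amounts. The groups did not overlap in any of the 3, where 22% of all genes had no overlap in this direction. Fen1, the nuclease that removes RNA flaps, was at 998.1 and 853.9 (Hemangioblast) against 1072 and 1171 (hCD4) (log2 change -0.28, SE 0.158, adjusted p = 0.472). Lig1, the ligase that seals the fragments, was at 1654 and 1483 against 1662 and 1854 (log2 change -0.16, adjusted p = 0.693). For Lig1 the nearest arrays of the groups were almost equal, and a second, dim probe set had a change of 0.16. Top1, which relieves the twist ahead of the fork, was at 2219 and 1849 (Hemangioblast) against 2311 and 2898 (hCD4) (log2 change -0.35, SE 0.169, adjusted p = 0.371). Chaf1a and Chaf1b encode subunits of the assembly factor that places histones behind the fork. Chaf1a was at 263.5 and 195.4 (Hemangioblast) against 301.1 and 269.2 (hCD4) (log2 change -0.31, SE 0.235, adjusted p = 0.624). Chaf1b was at 573.8 and 571.5 (Hemangioblast) against 571.4 and 787.9 (hCD4) (log2 change -0.22, SE 0.194, adjusted p = 0.68), where only hCD4 replicate 2 stood above the other arrays, and its change was 0.0032 without that array.

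The 2 measured subunits of ribonucleotide reductase, which makes deoxynucleotides, were among the lowest. Rrm2, the small subunit whose amount is known to peak in S phase, was at 962.5 and 791.6 (Hemangioblast) against 1320.3 and 1493 (hCD4), 1.60-fold lower (log2 change -0.68, SE 0.164, adjusted p = 0.0616, interval -1.05 to -0.30). All Hemangioblast values of Rrm2 were below all hCD4 values, and its adjusted p was 0.0365 without Hemangioblast replicate 1 and 0.166 to 0.39 without each of the other arrays. With a constant of 1 its adjusted p was 0.0471, without scaling 0.224 and without an intensity trend 0.255. Rrm1, the large subunit, was at 1277 and 1265 (Hemangioblast) against 1762 and 1691 (hCD4), 1.35-fold lower (log2 change -0.44, SE 0.139, adjusted p = 0.144). Its replicates were close, while a second, dim probe set of Rrm1 had a change of -0.036 (adjusted p = 0.984).

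**Figure D3:**
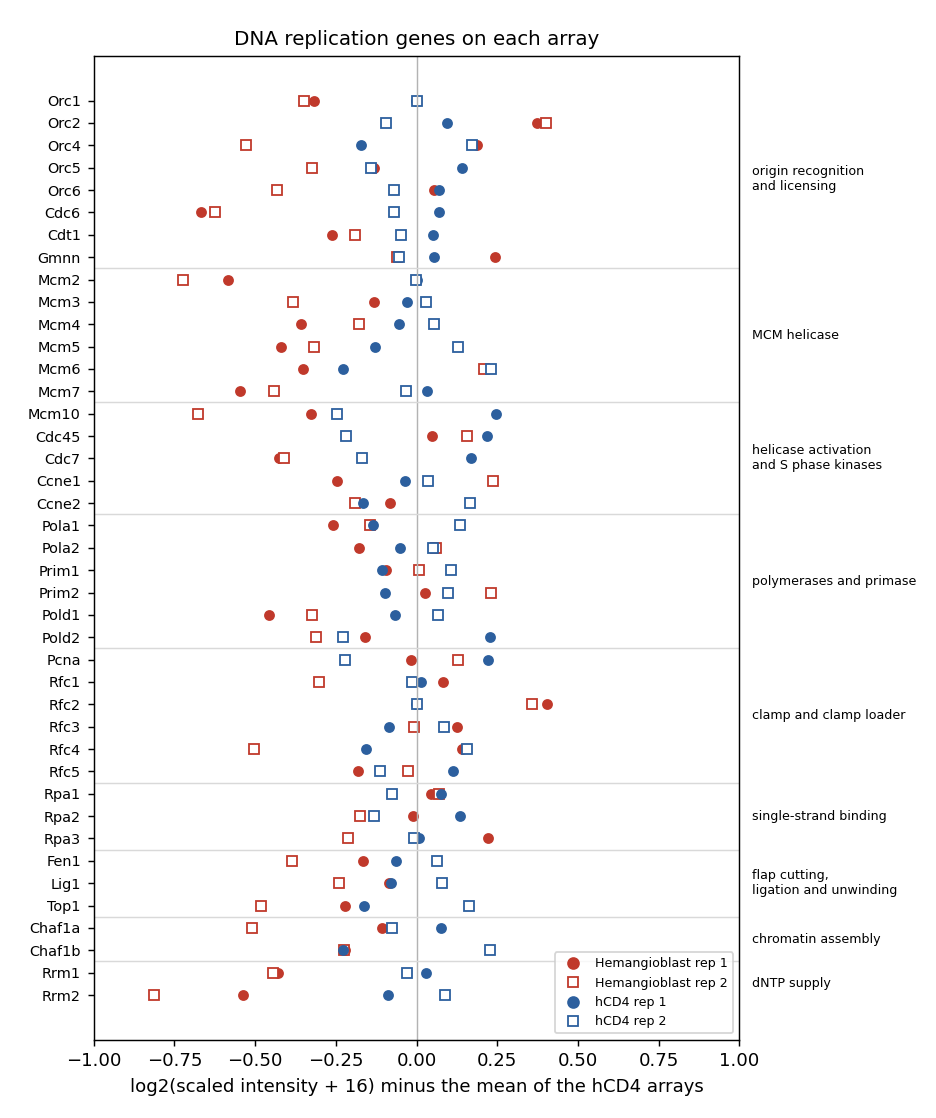
Each measured DNA replication gene on each array, as log2(scaled intensity + 16) minus the mean of the 2 hCD4 arrays, grouped by role; circles are replicate 1, open squares replicate 2, red Hemangioblast and blue hCD4, and some symbols cover each other. The red symbols of Cdc6, Mcm2, Mcm7, Rrm1 and Rrm2 lie left of the blue ones, those of Rfc2 and Orc2 lie right, and those of Pcna and the Rpa genes mix with them.

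Further genes of the pathway were taken from lists written from general knowledge. Of 23 measured other factors of the replication fork, 2 fell (8.7%) and 0 rose, against 1.95% and 3.43% of all genes, and the median change was -0.13. Nasp, a histone chaperone, fell from 1293 and 1199 (hCD4) to 667.1 and 710.5 (Hemangioblast, log2 change -0.84, SE 0.151, adjusted p = 0.0191). Hells, a chromatin remodeller that supports DNA methylation, fell from 855.7 and 875.9 to 323.5 and 510.6 (log2 change -1.06, SE 0.224, adjusted p = 0.0373). For both genes the groups lay far apart, with Hemangioblast replicate 1 the lower array of Hells. The adjusted p of Nasp was 0.154 without hCD4 replicate 1 and 0.12 without hCD4 replicate 2. That of Hells was 0.066 without Hemangioblast replicate 1, 0.17 without hCD4 replicate 1 and 0.221 without hCD4 replicate 2. Neither call held without an intensity trend (0.143 and 0.172) or without scaling (0.106 and 0.082). Top2a, the topoisomerase that untangles sister DNA, was at 689.7 and 563.2 against 942.4 and 723.2 (adjusted p = 0.376), and Pold3, another polymerase delta subunit, at 510.2 and 819.6 against 946.1 and 804.4 (0.447).

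Of 15 measured other enzymes of nucleotide supply, 1 fell and 1 rose (13.3% in all, against 5.38% of all genes), and the median change was -0.35. Cad, which carries out the opening steps of pyrimidine synthesis, fell from 1384 and 1464 to 698.6 and 688.2, 2.03-fold (log2 change -1.02, SE 0.147, adjusted p = 0.00686). Samhd1, which breaks deoxynucleotides down and is abundant in myeloid cells, rose from 235.1 and 171.3 to 593.7 and 454.8, 2.47-fold (log2 change 1.31, SE 0.237, adjusted p = 0.0201). The 8 rising myeloid markers moved with Samhd1, and their part in its rise was not tested. The adjusted p of Cad was 0.0638 without hCD4 replicate 1 and 0.0888 without hCD4 replicate 2. That of Samhd1 was 0.0876 without Hemangioblast replicate 1 and 0.132 without hCD4 replicate 2. Second, dim probe sets had changes of -0.06 for Cad and 0.26 for Samhd1, and with the mean of all probe sets the adjusted p was 0.257 and 0.193. Without an intensity trend it was 0.0911 and 0.1, and without scaling that of Samhd1 was 0.0938. Dctpp1, which clears modified deoxycytidine triphosphate, was at 1129 and 874.5 (Hemangioblast) against 1566 and 2128 (hCD4) (log2 change -0.87, SE 0.198, adjusted p = 0.0502), and Ctps, which makes cytidine triphosphate, at 1046 and 836.9 against 1595 and 1473 (log2 change -0.70, SE 0.164, adjusted p = 0.0543). Their adjusted p passed the threshold without Hemangioblast replicate 1 (0.0259 and 0.0243). Without each of the other arrays it did not, with 0.0848 to 0.354 for Dctpp1 and 0.144 to 0.259 for Ctps.

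Among 24 measured regulators of the step from G1 to S phase, 2 rose and 1 fell (12.5% in all, against 5.38% of all genes), and the median change was -0.0026. Rb1, the retinoblastoma protein that holds E2F factors back, rose from 57.4 and 57.5 to 281.5 and 284.3 (log2 change 2.02, SE 0.266, adjusted p = 0.00431). Its replicates were nearly equal in both groups, and it passed the threshold in all 13 alternatives that gave it a value, with adjusted p up to 0.0391. A second, dim probe set of Rb1 leaned the same way (log2 change 0.996, adjusted p = 0.229). Cdkn1a, which encodes the cyclin kinase inhibitor p21, rose from 385.6 and 298.8 to 866.4 and 696.0 (log2 change 1.16, SE 0.203, adjusted p = 0.0171). Ccnd1, which encodes cyclin D1, a partner of Cdk4 in G1, fell from 1164 and 1114 to 526.1 and 381.5 (log2 change -1.31, SE 0.19, adjusted p = 0.00704). In both genes a second probe set had a smaller change of the same sign that did not pass (0.49, adjusted p = 0.3, for Cdkn1a and -0.31, adjusted p = 0.55, for Ccnd1). The adjusted p of Cdkn1a was 0.0622 without Hemangioblast replicate 1 and 0.132 without hCD4 replicate 2, and that of Ccnd1 was 0.0721 and 0.0656 without hCD4 replicates 1 and 2. Without an intensity trend they were 0.109 and 0.0785, and without scaling 0.097 and 0.061. Cdc25a, the phosphatase that activates Cdk2, was at 747.5 and 523.1 (Hemangioblast) against 1122 and 1028 (hCD4) (log2 change -0.76, SE 0.197, adjusted p = 0.0753), and its adjusted p was 0.0174 without Hemangioblast replicate 1, 0.199 to 0.29 without each of the other arrays and 0.296 with the mean of all probe sets.

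**Figure D4:**
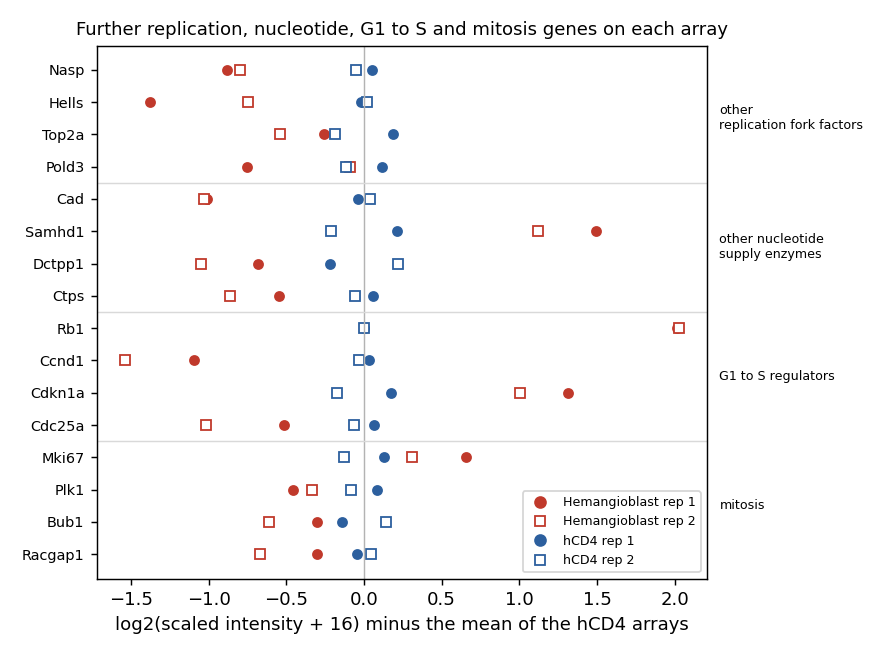
The 16 further pathway genes with the smallest adjusted p in their lists, on each array, as log2(scaled intensity + 16) minus the mean of the 2 hCD4 arrays, with the symbols used for the replication genes. Rb1, Cdkn1a and Samhd1 lie to the right on both Hemangioblast arrays, and Nasp, Hells, Cad and Ccnd1 to the left.

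Genes of mitosis, the phase after S and G2, also had no member past the threshold. Of 28 measured genes 0 rose and 0 fell by limma, against 3.43% and 1.95% of all genes. At an unadjusted p of 0.05, 4 were lower (14.3%, against 8.67% of all genes) and 1 higher (3.57%, against 9.64%). For 27 (96.4%) the interval lay within 2-fold, against 65.1% of all genes. The median standard error was 0.18 here too, against 0.25 for all genes, and the median absolute change 0.22 against 0.24. The median change was -0.1, and 64.3% were below 0, against 78% of the replication genes. No difference between the lists was tested. Mki67, the proliferation antigen Ki-67, was at 1837 and 1438 (Hemangioblast) against 1271 and 1057 (hCD4) (log2 change 0.48, SE 0.176, adjusted p = 0.21), and its groups were apart in the direction opposite to most replication genes. The mitotic kinase gene Plk1 was at 1111 and 1209 against 1624 and 1439 (adjusted p = 0.227), the checkpoint kinase gene Bub1 at 1106 and 892.1 against 1243 and 1509.9 (0.234), and Racgap1, which acts in cell division, at 466.5 and 356.9 against 559.1 and 597.9 (0.256). On these probe sets both Hemangioblast arrays were below both hCD4 arrays in the last 3 genes, which were picked by adjusted p. The same was so for 39.3% of the mitosis genes and 22% of all genes. Both were above in 17.9% of the mitosis genes and 24.5% of all genes. The groups overlapped on 2 further probe sets of Plk1 (changes of -0.21 and -0.048) and on 2 further, dim ones of Bub1 (-0.52 and 0.40).

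**Figure D5:**
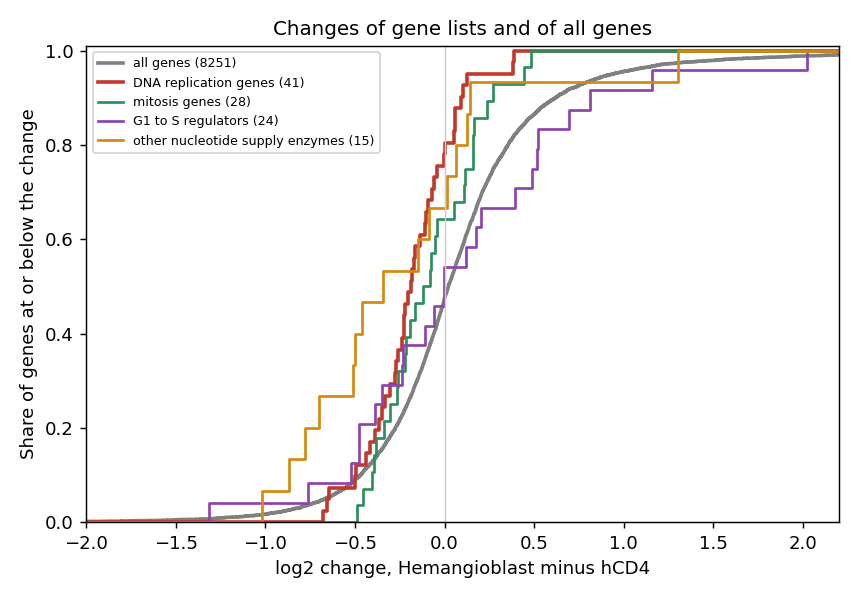
Cumulative share of genes against log2 change (Hemangioblast minus hCD4) for all 8251 genes, the 41 DNA replication genes and 3 lists of further genes; the axis shows changes from -2 to 2.2. The replication genes run from -0.68 to 0.39 with a median of -0.19, and the mitosis genes from -0.49 to 0.48. Regulators of G1 to S spread from -1.31 to 2.02.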

How the data were processed

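For each array the authors deposited a linear intensity for 12488 probe sets, with software, background correction and scaling not given in the sources used here. Per the labels, 20 ug of TRIzol RNA was labelled without amplification. All 4 value columns were used. After 66 control probe sets were left out, each array was scaled to the mean of the arrays' trimmed means (2% off each end), then 16 was added and log2 taken. The test was run in limma 3.58.1 under R 4.3.3 (2 residual and 6.18 prior degrees of freedom, two-sided, Benjamini-Hochberg over 12422 probe sets, threshold 0.05, no block). The 95% intervals come from this fit. An exact permutation test of 2 against 2 arrays cannot give a p below 0.333. The number of arrays limits the precision.

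Gene names come from probe sets that the platform annotation gives 1 symbol (10833 have 1, 396 several). The brightest probe set on average over all 4 arrays stands for its gene, a choice that uses no group. All 41 members matched RefSeq identifiers and 0 symbols changed. Members, lists and tests were chosen with earlier results of these data known. Values are given per array for members past the threshold, for up to 2 members per role with the smallest adjusted p and for Pcna, Mcm2, Mcm5, Mcm6, Rrm1 and Rrm2, with shorter values for the rest, and in each further list for the 4 genes with the smallest adjusted p. The alternatives were constants of 1 and 64, median, quantile and no scaling, dim probe sets left out (mean under 100), no intensity trend, the replicate number as a block, the mean of all probe sets, a rule of 2-fold in all 4 pairs, and leaving out each array. Figures were drawn with matplotlib 3.10.9.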

Additional observations from a re-analysis of the deposited data

How the results depend on the processing

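The count of members higher was 0 under every alternative run. The count of members lower was 0 in the reported fit, 2 with a constant of 1, 3 with dim probe sets left out, 1 with the mean of all probe sets of a gene, 0 to 1 with 1 array left out, and 0 with a constant of 64, median, quantile or no scaling, no intensity trend and the rule of 2-fold in all 4 pairs. The lone array of a group with 1 array left out is assumed to vary like the others. With the replicate block the count was 1 (Mcm2, adjusted p = 0.0399). Over all 8251 genes the count lower was 161 in the reported fit, 205 with a constant of 1 and 225 with the block. It was 135 with the mean of all probe sets, and 279 of 6261 genes with dim probe sets left out. Same-numbered arrays did not deviate together (r = -0.01 across 12422 probe sets), so the numbers are not taken to pair them, and the block moved the count of probe sets from 556 to 710. The members' median change of -0.19 was -0.27 with median scaling and -0.24 to -0.16 with 1 array left out. The count of 556 probe sets was 272 without scaling (222 higher, 50 lower, against 362 and 194), 853 without dim probe sets, 220 without an intensity trend (188 higher, 32 lower), 359 by the 2-fold rule (284 higher, 75 lower) and 219 to 517 with 1 array left out. Signs turned for 4 members with median scaling (Pcna -0.0305, Rpa1 -0.0266, Rfc3, Rpa3), 1 without scaling (Ccne1), 2 with quantile normalization (Ccne1, Pola2) and 4 with the mean of all probe sets (Mcm5 0.17, Orc5, Pola2, Rfc5). They turned for 18 members on leaving out at least 1 of the arrays, 3 to 10 an array. Among the members given in full, these were Rfc4 (-0.503 to 0.14), Rpa2 (-0.227 to 0.0398), Rpa1 (-0.019 to 0.134), Chaf1b (-0.449 to 0.0032), Pcna (-0.17 to 0.276) and Mcm6 (-0.351 to 0.21). The cause was not tested. With 2 arrays a group, the median standard error of a member's change was 0.18.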

Other observations

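Letters of the E2F type were also counted over the array. Of 6576 measured genes with a RefSeq promoter, 284 held them, and the median log2 change of these genes was -0.06, against 0.02 for the 6292 without. Among the 36 measured members with a promoter, the median change was -0.26 for the 11 that held the letters, with 10 below 0, and -0.18 for the 25 that did not, with 20 below 0. The 11 include Mcm5, Mcm7 and Cdc6, and the others include Mcm2, Rrm1 and Rrm2. These medians are descriptions across genes, which are not independent replicates, and no test was made.

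The relatives of Rb1 and some E2F and cyclin D genes, named after their values were seen, gave changes that did not pass. Rbl2, on a dim probe set, was at 90.1 and 102.0 (Hemangioblast) against 43.1 and 52.6 (hCD4) (log2 change 0.81, adjusted p = 0.247). Rbl1 was at 189.0 and 214.0 (Hemangioblast) against 159.6 and 115.7 (hCD4) (0.51, 0.418). For both, the 2 Hemangioblast arrays were above the 2 hCD4 arrays, as for Rb1 and for 24.5% of all genes. E2f1 was at 228.2 and 213.9 (Hemangioblast) against 169.5 and 159.7 (hCD4) (0.39, 0.496), E2f8 at 643.9 and 462.2 against 416.6 and 338.4 (0.52, 0.286) and E2f5 at 354.7 and 261.1 against 468.1 and 422.4 (-0.52, 0.271). The E2F genes thus leaned in both directions. Ccnd3, which encodes cyclin D3, was at 2280.4 and 2379 (Hemangioblast) against 1199 and 1717 (hCD4) (0.69, 0.0878), opposite in sign to Ccnd1. E2f3 and Ccnd2 had changes of -0.057 and -0.0036, with overlapping groups.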
